A study of Homo sapiens with 32 samples.

Results

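The genes described here are CREBZF, TAF1D, RBM39, MYNN and ARGLU1, 5 of the 18854 genes that could be matched to the 87398 transcripts listed in the tables. They were chosen by their measured counts and TPM in these same libraries, as splicing-sensitive genes that changed with the CDK11 inhibitor OTS964 in both genotypes of the study. Their OTS964 responses, the difference of those responses and their transcript shares are therefore given as a description, with errors and without p-values. All 12 of their listed transcripts were used: 5 of RBM39, 3 of MYNN, 2 of CREBZF and 1 each of TAF1D and ARGLU1. All 5 genes passed the filter on low counts. Across cell lines, 4 of the 5 passed an adjusted p of 0.05 in wild-type cells, where 58.8% of the 14318 genes tested did, and 5 of 5 in G579S cells, where 2.43% did. The difference of the 2 responses passed for 5 of 5, and for 50.1% of all genes. The choice fixed these counts. The gene that did not pass in wild-type cells was TAF1D. Only CREBZF and ARGLU1 passed in the same direction in both genotypes (1.50% of all genes tested), while RBM39 and MYNN were lower with OTS964 in wild-type cells and higher in G579S cells. The name under which the 5 were grouped thus holds for CREBZF and ARGLU1 as a change of 1 direction, for RBM39 and MYNN as changes of opposite direction, and for TAF1D in G579S cells with the scaling used here.

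RNA was sequenced from 4 established human cancer lines: A375 (melanoma), Cal51 and MDA-MB-231 (breast) and DLD1 (colorectal). Each line has wild-type cells and cells named G579S after a substitution in CDK11. Treatment was OTS964 at 100 nM or the solvent DMSO, lasting 6 h, and 2 libraries per group made 32 libraries in 16 groups. The sources used here do not state how the G579S cells were made, whether each is 1 clone, or whether paired libraries are separate cultures. The p-values of contrasts within a line therefore reflect the spread among libraries of a group, and that spread may be technical. Errors and p-values of contrasts across lines also take in how far the response differed between lines, but only in part. Those fits count each library, and not each of the 4 lines, as a unit. Their errors, intervals and p-values can therefore be too small.

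CDK11 is a cyclin-dependent kinase that works with L-type cyclins in transcription and in pre-mRNA splicing, where it acts on the SF3B1 component of the U2 particle. RBM39 is a relative of the splicing factor U2AF2 and takes part in splice-site choice and transcriptional coactivation. ARGLU1 is an arginine- and glutamate-rich splicing and coactivator protein. TAF1D is a subunit of SL1, the factor that brings RNA polymerase I to ribosomal DNA. CREBZF (also called Zhangfei) is a basic leucine zipper protein that binds host cell factor, and MYNN (myoneurin) is a zinc finger protein with a BTB domain. Transcripts of several of these genes are known to keep introns or to carry exons that lead to nonsense-mediated decay.

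A library held between 16091376 and 29742687 estimated reads. Levels are given as CPM, counts relative to the library's matched total, after TMM scaling, which sets the bulk of genes level between libraries, and fold changes as log2 with their standard error (SE). For the 8 libraries of wild-type cells with OTS964 the mean scaling factor was 0.768, and for the other conditions it was 1.04 to 1.12. Without it, the median gene lay at -0.65 rather than -0.11 (log2) in the wild-type response, so every wild-type response below is relative to the bulk of genes. The share of reads on predicted transcripts also differed, at 8.97% to 9.46% in wild-type OTS964 libraries and 10.8% to 12.9% in all others. The libraries labelled DLD1 wild-type went against their label: under DMSO the melanocyte factor SOX10 stood at 737 and 695 CPM there, at 583 and 600 CPM in wild-type A375, and at 0.938 and 1.63 CPM in DLD1 G579S. The epithelial gene CDH1 stood at 14.7 and 17.7 CPM there, at 557 and 545 CPM in DLD1 G579S and at 0 CPM in wild-type A375. Over 8 melanocyte markers the mean log2 CPM was 1.26 and 0.60 in those labelled DLD1 wild-type and -1.83 and -1.47 in DLD1 G579S. Over 8 colorectal markers it was -1.13 and -0.37, against 2.09 and 2.59 in DLD1 G579S. Wild-type A375 had 0.87 and 0.53 for the melanocyte markers and -4.81 and -4.60 for the colorectal ones. The libraries labelled DLD1 wild-type thus lay between wild-type A375 and DLD1 G579S in colorectal markers. The 4 libraries are kept under their label, and wild-type values across lines are also given with them left out. For the difference of responses the 4 DLD1 G579S libraries were left out as well. CDK11B, which shares most of its sequence with CDK11A, stood at 605 and 672 CPM in the DMSO libraries of MDA-MB-231 G579S and between 25.5 and 61.8 CPM in all other DMSO libraries. The part of these differences in the responses below was not tested. These RNA data cannot check the G579S substitution itself. In bulk RNA, fewer cells that express a gene and less of its RNA per cell cannot be told apart.

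RBM39 is shown first because its transcripts differ by coding segments that can be read in the tables. The 4 curated transcripts are the combinations of an 18-base segment at the start of an exon, where a choice of 3′ splice site keeps or drops it, and a whole exon of 66 bases. Both lengths keep the reading frame. The combination without either is known here by its listed length alone. The coding sequence has 1590 bases with both segments, 1572 without the shorter one and 1524 without the exon, leaving out the stop codon. The sequences come from GENCODE transcripts on GRCh38, 5′ to 3′ on the transcript's strand. Capitals mark the segment and lower case the 20 bases of transcript on each side.
RBM39 18-base segment: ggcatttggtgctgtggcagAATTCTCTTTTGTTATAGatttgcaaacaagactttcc
RBM39 66-base exon: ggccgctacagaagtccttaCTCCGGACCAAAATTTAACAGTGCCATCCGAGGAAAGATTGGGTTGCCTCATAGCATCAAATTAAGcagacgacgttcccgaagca
Both are shown because the shares of transcripts with them differed between DMSO and OTS964 libraries of wild-type cells, the shorter segment in all 4 lines.

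RBM39 was lower with OTS964 in all 8 wild-type libraries than in the DMSO libraries of their line, and higher in all 8 G579S libraries. In A375, the wild-type libraries stood at 207 and 193 CPM with DMSO and at 152 and 147 CPM with OTS964, and the G579S libraries at 166 and 173 CPM and at 329.7 and 325 CPM. The Cal51 values were 165 and 160.1 CPM, then 75.0 and 63.4 CPM, in wild-type cells, and 156 and 134 CPM, then 184 and 173 CPM, in G579S cells. The groups of each line and genotype did not overlap between treatments. The libraries labelled DLD1 wild-type had 232 and 210.5 CPM with DMSO and 46.8 and 182 CPM with OTS964, the widest spread of any pair, against 168 and 161 CPM and then 795 and 768 CPM in DLD1 G579S. In MDA-MB-231, wild-type cells went from 176 and 177 CPM to 71.7 and 77.1 CPM and G579S cells from 158 and 179 CPM to 259 and 263 CPM. The DLD1 G579S libraries with OTS964 thus held more RBM39 than any other library.

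Across lines the RBM39 log2 fold change was -0.96 ± 0.209 (SE, 95% interval -1.41 to -0.51) in wild-type cells and 1.02 ± 0.21 (0.57 to 1.47) in G579S cells. The difference, G579S minus wild-type, was 1.98 ± 0.307 (1.35 to 2.62), and 1.59 with DLD1 left out in both genotypes. Leaving out the libraries labelled DLD1 wild-type gave a wild-type response of -0.97. By line, the G579S response was 2.25 ± 0.328 in DLD1, 0.95 ± 0.317 in A375, 0.63 ± 0.315 in MDA-MB-231 and 0.30 ± 0.315 in Cal51. Within a line only that of DLD1 passed the threshold. The intervals in MDA-MB-231 (-0.026 to 1.295) and Cal51 (-0.36 to 0.96) spanned both directions. The wild-type response was -0.42 ± 0.316 in A375 (-1.08 to 0.24), -0.95 ± 0.319 in DLD1, -1.23 ± 0.324 in Cal51 and -1.25 ± 0.321 in MDA-MB-231. Without the libraries labelled DLD1 G579S the G579S response was 0.63 across lines. That fit passed the threshold, while the G579S value fell short of it in 5 fits with a single library left out, A375 G579S DMSO replicate 1 (1.02) or 2 (1.04), DLD1 G579S DMSO replicate 1 (0.88) or 2 (0.88), or DLD1 G579S OTS964 replicate 2 (0.95). On the TPM scale, which corrects for transcript length and uses the library total, mean RBM39 went from 119 ± 9.46 to 37.3 ± 18.7 in wild-type cells and from 102 ± 15.3 to 212 ± 119 in G579S cells (SD, n = 8).

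The share of curated RBM39 transcripts that carried the 18-base segment was lower with OTS964 in every wild-type library. In TPM it was 48.3% ± 3.22 (SD, n = 8) with DMSO, from 44.5% to 54.5%, and 9.86% ± 11.1 with OTS964, from 0% to 24.7% with a median of 6.5%. It was listed at 0 in both Cal51 libraries and in 1 library each labelled DLD1 and MDA-MB-231, while the partner libraries had 13% and 17.8%. Wild-type A375 kept the most, at 24.7% and 23.4%. G579S libraries showed no such shift, with 46.3% ± 6.07 under DMSO (36.3% to 52.1%) and 45.9% ± 3.53 with OTS964 (40% to 50%). In DLD1 G579S, transcripts with the segment went from 41.1 and 35.6 TPM to 167 and 161 TPM and those without it from 63.2 and 62.4 TPM to 234 and 240 TPM, so both forms were higher.

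**Figure D1:**
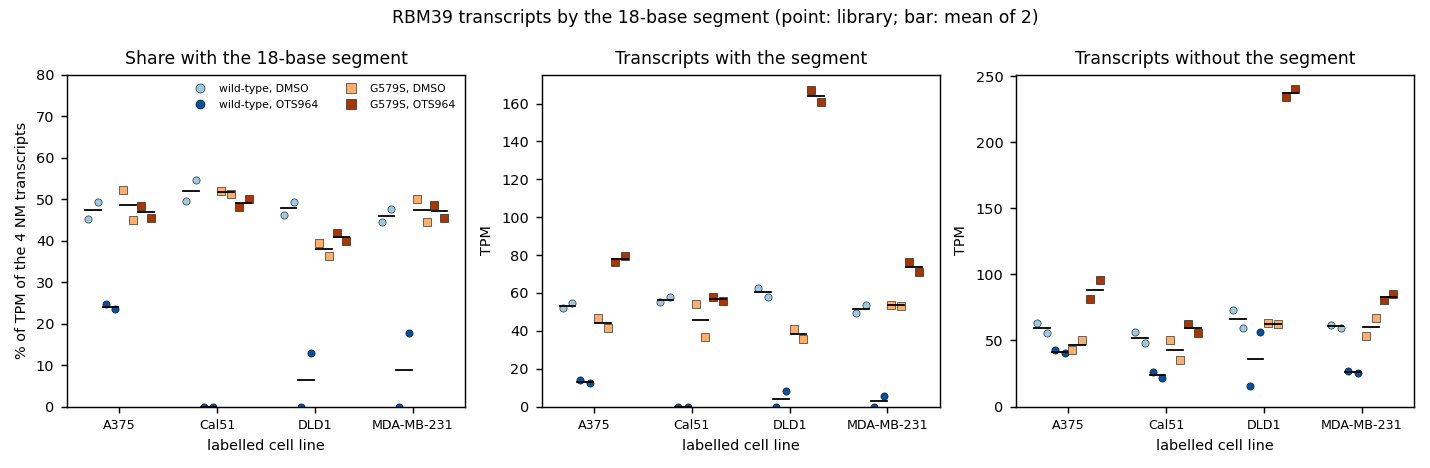
RBM39 transcripts with and without the 18-base segment. Left, the percent of the TPM of the 4 curated transcripts that carries the segment; middle and right, the TPM of the transcripts with and without it; x axis, labelled line. Each point is 1 library and each bar the mean of 2. Wild-type OTS964 libraries lie between 0% and 24.7%, and all other libraries between 36.3% and 54.5%.

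For transcripts without the segment, the comparison in wild-type cells depended on the scaling. In TPM, which uses library totals, they were lower in all 4 lines. In A375, transcripts with the segment went from 52 and 54.5 TPM to 14 and 12.4 TPM, and those without it from 63.4 and 55.8 TPM to 42.5 and 40.5 TPM. In wild-type MDA-MB-231 the latter went from 62 and 59.4 TPM to 26.6 and 25.6 TPM. In TMM-scaled CPM, relative to the bulk of genes, the A375 transcripts without the segment had 108 and 93.5 CPM with DMSO and 113 and 108 CPM with OTS964, and those with it 89.5 and 92.7 CPM, then 37.7 and 33.5 CPM. The libraries labelled DLD1 wild-type had 121 and 100.1 CPM without the segment with DMSO, and 46.3 and 157 CPM with OTS964. Wild-type Cal51 overlapped between treatments, with 81.6 and 71.4 CPM, then 75.0 and 62.7 CPM, while wild-type MDA-MB-231 was lower, with 92.4 and 88.3 CPM, then 71.5 and 61.6 CPM. Transcripts with the segment were lower with OTS964 on both scales in every wild-type library. The 66-base exon moved less evenly. The share of transcripts that lacked it was 10.1% ± 8.73 (SD, n = 8) with DMSO and 26.5% ± 21.2 with OTS964 in wild-type cells, and it ran from 0% in a MDA-MB-231 library to 66.1% in a library labelled DLD1. In G579S cells it was 8.75% ± 5.7 and 5.95% ± 3.71. Reads are divided among transcripts by an estimate, so a share of 0 is a listed value. Transcripts that keep introns are not among the curated RBM39 transcripts measured here.

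ARGLU1 was lower with OTS964 in both genotypes and in all 4 lines. In A375 its 1 listed transcript stood at 63.1 and 66.1 CPM, then 18.0 and 14.7 CPM, in wild-type cells and at 65.6 and 68.9 CPM, then 46.8 and 40.9 CPM, in G579S cells. The Cal51 libraries had 65.3 and 71.5 CPM, then 22.2 and 24.3 CPM, against 41.0 and 52.3 CPM, then 28.6 and 28.5 CPM. In each line the G579S libraries with OTS964 lay between the wild-type ones with OTS964 and the DMSO libraries. Those labelled DLD1 wild-type went from 57.3 and 63.8 CPM to 18.0 and 19.2 CPM, and DLD1 G579S from 58.4 and 58.4 CPM to 31.7 and 23.9 CPM. MDA-MB-231 had the lowest levels, at 33.8 and 36.6 CPM, then 6.25 and 7.22 CPM, in wild-type cells and 25.4 and 26.7 CPM, then 12.8 and 13.5 CPM, in G579S cells. The treatments did not overlap in any line or genotype.

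Across lines the ARGLU1 log2 fold change was -1.90 ± 0.118 (SE, 95% interval -2.15 to -1.65) in wild-type and -0.84 ± 0.0893 (-1.03 to -0.65) in G579S cells. The difference was 1.06 ± 0.145 (0.76 to 1.35), and 1.20 with DLD1 left out in both genotypes. With just the libraries labelled DLD1 wild-type left out, the wild-type response was -1.97. G579S cells thus showed 44.4% of the wild-type log2 change across lines, between 31.1% in A375 and 62.9% in DLD1. The DLD1 share rests on wild-type libraries that went against their label, and the next highest was 45.5% in Cal51. Over the 4652 genes that passed in wild-type cells with a log2 change of at least 1 in size, the median share was 7.41%, and 14.5% of them reached 25%. ARGLU1 was chosen with both responses known, so its larger share is a description and no separate result. ARGLU1 had the smallest SE of the 5 genes in both genotypes. Mean TPM went from 62.8 ± 15.3 to 10.0 ± 3.68 in wild-type cells and from 52.9 ± 14.6 to 27.8 ± 10.2 in G579S cells (SD, n = 8).

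**Figure D2:**
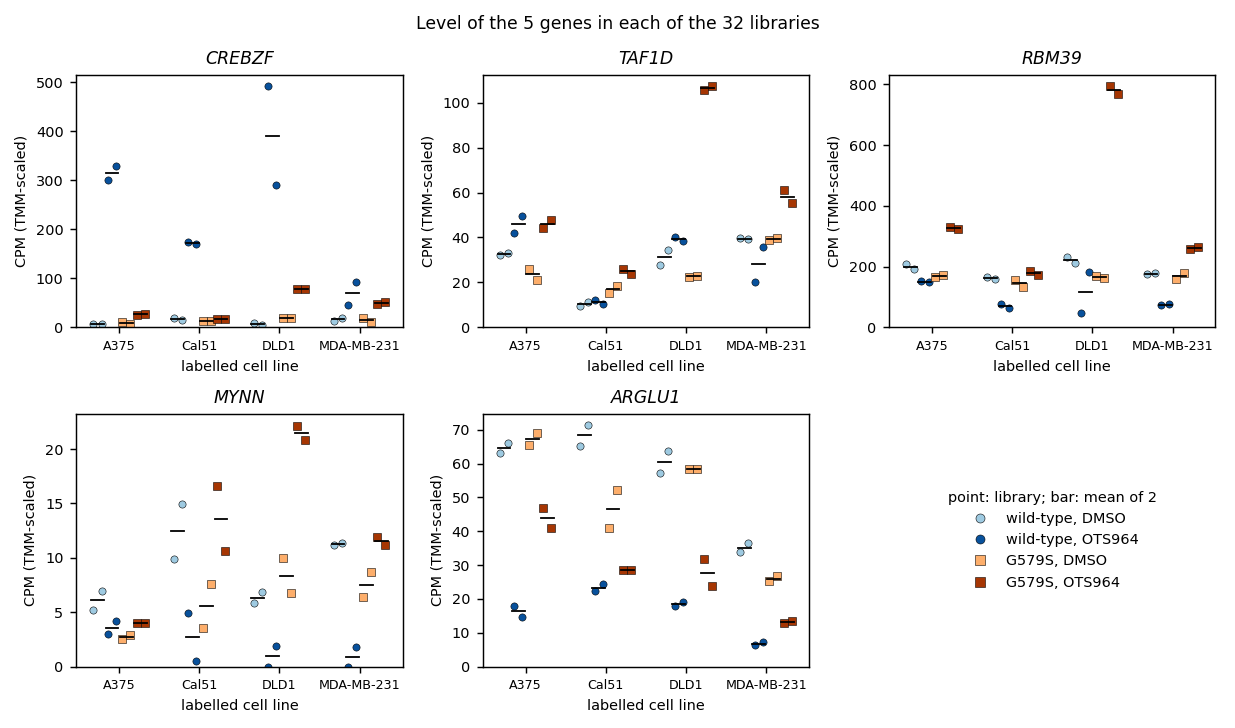
Level of the 5 genes in each of the 32 libraries, as TMM-scaled CPM on a linear axis from 0, by labelled line on the x axis. Each point is 1 library, the colour gives genotype and treatment, and each bar is the mean of 2. CREBZF lies between 45.2 and 491.7 CPM in wild-type OTS964 libraries, above all DMSO libraries. RBM39 and TAF1D are highest in DLD1 G579S with OTS964, and ARGLU1 in wild-type OTS964 libraries lies between 6.25 and 24.3 CPM.

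TAF1D was higher with OTS964 in the G579S cells of every line, and varied in direction in wild-type cells. The A375 libraries stood at 32.4 and 33.1 CPM, then 42.0 and 49.6 CPM, in wild-type cells and at 26.0 and 21.2 CPM, then 44.2 and 47.9 CPM, in G579S cells. Wild-type Cal51 had the lowest levels, at 9.57 and 11.2 CPM, then 12.3 and 10.6 CPM, and its treatments overlapped. Cal51 G579S went from 15.4 and 18.5 CPM to 26.1 and 23.8 CPM. The libraries labelled DLD1 wild-type had 27.9 and 34.5 CPM, then 40.3 and 38.5 CPM, and DLD1 G579S 22.6 and 22.8 CPM, then 106 and 108 CPM. In MDA-MB-231 the wild-type libraries went down, from 39.8 and 39.2 CPM to 20.1 and 35.8 CPM, and the G579S libraries up, from 38.7 and 39.9 CPM to 61.0 and 55.2 CPM.

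The TAF1D log2 fold change across lines was 0.12 ± 0.154 (SE, 95% interval -0.21 to 0.45) in wild-type cells and 1.07 ± 0.198 (0.65 to 1.50) in G579S cells. The difference was 0.95 ± 0.257 (0.42 to 1.48), and 0.65 with DLD1 left out in both genotypes. In wild-type cells of the other lines the response was 0.04. By size of log2 change TAF1D ranked 13289 of 14318 genes in wild-type cells and 665 in G579S cells. The wild-type direction depends on the scaling. With library totals in place of TMM it was -0.43, past the threshold, and mean TPM was 44.2 ± 18.9 with DMSO and 28.1 ± 13.7 with OTS964 (SD, n = 8). In G579S cells mean TPM went from 40.8 ± 18.4 to 80.9 ± 38.7, the same direction on either scale. TAF1D had between 110 and 1889 estimated reads in a library, all on 1 listed transcript.

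CREBZF had the largest response of the 5 in wild-type cells, ranking 180 of 14318 genes by size of log2 change. Its levels in A375 were 6.13 and 6.12 CPM, then 302 and 329 CPM, in wild-type cells, and 10.2 and 7.28 CPM, then 25.4 and 26.9 CPM, in G579S cells. In Cal51 they were 19.8 and 15.6 CPM, then 175 and 171 CPM, against 13.2 and 11.8 CPM, then 17.3 and 17.1 CPM. All wild-type OTS964 libraries lay above all DMSO libraries of the 4 lines. The libraries labelled DLD1 wild-type went from 8.80 and 5.43 CPM to 491.7 and 290.5 CPM, and DLD1 G579S from 18.3 and 18.5 CPM to 78.0 and 78.6 CPM. MDA-MB-231 differed in that its genotypes came close, with 13.5 and 18.8 CPM, then 45.2 and 93.3 CPM, in wild-type and 18.1 and 11.0 CPM, then 47.3 and 52.2 CPM, in G579S cells.

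Across lines the CREBZF log2 fold change was 4.21 ± 0.525 (SE, 95% interval 3.08 to 5.33) in wild-type and 1.49 ± 0.196 (1.07 to 1.91) in G579S cells. The difference was -2.72 ± 0.542 (-3.83 to -1.60), and -2.34 with DLD1 left out in both genotypes. Wild-type cells other than those labelled DLD1 gave 3.62. By line the difference was -4.10 ± 0.448 in A375, -3.69 ± 0.436 in DLD1, -2.83 ± 0.432 in Cal51 and -0.32 ± 0.421 (-1.20 to 0.57) in MDA-MB-231. The DLD1 value rests on wild-type libraries that went against their label. The difference between lines was not tested. G579S cells showed 35.4% of the wild-type log2 change across lines, from 13.8% in Cal51 to 84.9% in MDA-MB-231. Without the libraries labelled DLD1 G579S the response in G579S cells was 1.28 and short of the threshold, with 28 genes in all past it. Of the 2 listed CREBZF transcripts, 1 curated transcript held nearly all reads, with 88.5% to 100% of the gene's TPM in every library. With only 2 listed, this share cannot show which of the gene's transcripts changed. RefSeq lists 29 CREBZF transcripts, of which 17 are noncoding, and the noncoding ones were not analysed here.

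MYNN had few reads and the widest errors of the 5 genes in wild-type cells and within lines. The wild-type A375 libraries stood at 5.23 and 6.95 CPM, then 2.95 and 4.15 CPM, and the G579S ones at 2.49 and 2.86 CPM, then 4.01 and 3.97 CPM. In Cal51 the values were 9.93 and 14.9 CPM, then 4.90 and 0.48 CPM, against 3.57 and 7.55 CPM, then 16.6 and 10.6 CPM. OTS964 libraries lay below DMSO ones in wild-type cells and above them in G579S cells, with no overlap within a line. The libraries labelled DLD1 wild-type had 5.82 and 6.81 CPM, then 0 and 1.93 CPM, and DLD1 G579S 9.99 and 6.74 CPM, then 22.1 and 20.9 CPM. MDA-MB-231 had 11.2 and 11.3 CPM, then 0 and 1.82 CPM, in wild-type and 6.40 and 8.66 CPM, then 11.9 and 11.1 CPM, in G579S cells. The 2 libraries at 0 are replicate 1 of their groups, and a count of 0 allows up to 3 counts, by counting error only.

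Across lines the MYNN log2 fold change was -2.31 ± 0.752 (SE, 95% interval -3.92 to -0.70) in wild-type and 0.97 ± 0.192 (0.55 to 1.38) in G579S cells, and the difference 3.27 ± 0.742 (1.74 to 4.79). The wild-type value was -2.18 over the other 3 lines, and the difference 3.01 with DLD1 left out in both genotypes. Within a line the SE was close to 1, from 0.976 to 1.12, so single lines are imprecise. The G579S value was short of the threshold without the libraries labelled DLD1 G579S (0.83) and without any 1 of them, DMSO replicate 1 (0.97) or 2 (0.88) or OTS964 replicate 1 (0.92) or 2 (0.94). Mean TPM went from 2.97 ± 1.28 to 0.382 ± 0.341 in wild-type cells and from 1.97 ± 0.974 to 3.74 ± 1.92 in G579S cells (SD, n = 8). In DLD1 G579S with OTS964, 64.9% and 62.9% of MYNN TPM lay on the transcript NM_018657.4, against 41.1% and 0% with DMSO. In wild-type A375 that transcript was listed at 0 with DMSO and held 78.2% and 100% with OTS964, while in MDA-MB-231 G579S it held 32.6% and 0% with DMSO and was listed at 0 with OTS964. The shares thus moved in no common direction. The rest lay on NM_001185118.1, whose coding length of 1830 bases is the same. MYNN had at most 395.2 estimated reads in a library, so these shares rest on few reads.

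**Figure D3:**
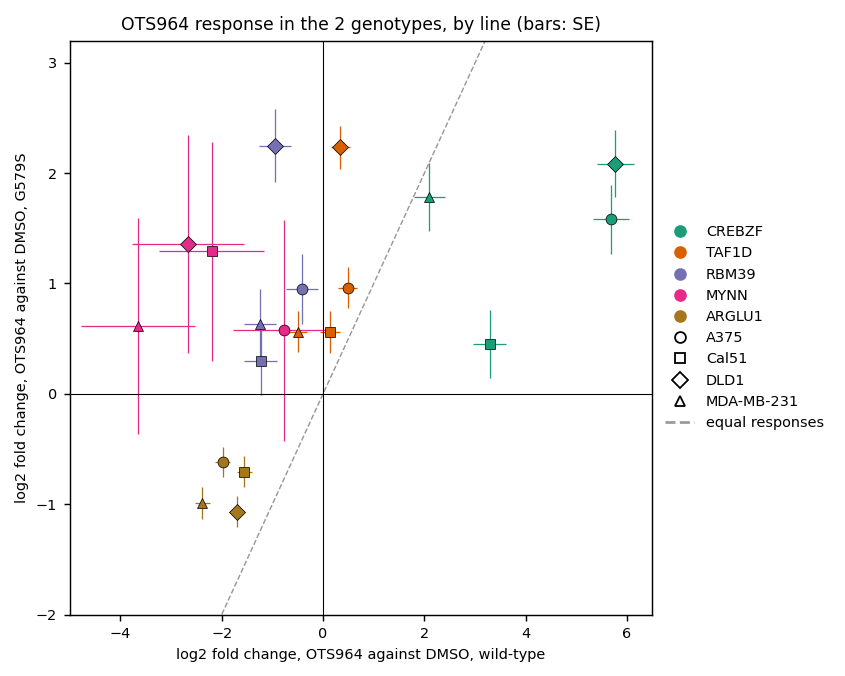
OTS964 response of the 5 genes by line: log2 fold change against DMSO in wild-type cells on the x axis and in G579S cells on the y axis, with bars for the SE, a colour for each gene and a symbol for each labelled line. Points on the dashed line would have equal responses. ARGLU1 lies in the lower left in all 4 lines, CREBZF in the upper right, and RBM39 and MYNN in the upper left.

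Ordered by mean TPM over the 16 groups, the 5 genes had different ends. RBM39 ran from 23.8 ± 3.12 TPM (SD, n = 2) in wild-type Cal51 with OTS964 to 402.6 ± 0.522 in DLD1 G579S with OTS964, and the 4 wild-type OTS964 groups were the lowest. ARGLU1 ran from 4.66 ± 0.865 in wild-type MDA-MB-231 with OTS964 to 80.8 ± 4.43 in wild-type Cal51 with DMSO, also with the 4 wild-type OTS964 groups at the bottom. On the TMM-scaled CPM scale the lowest 4 groups also held MDA-MB-231 G579S with OTS964 for ARGLU1 and Cal51 G579S with DMSO for RBM39. TAF1D ran from 9.65 ± 1.14 in wild-type Cal51 with OTS964 to 135.5 ± 4.28 in DLD1 G579S with OTS964, and both wild-type Cal51 groups were the lowest. CREBZF ran from 1.28 ± 0.0092 in wild-type A375 with DMSO to 47.0 ± 14.7 in the group labelled DLD1 wild-type with OTS964, and MYNN from 0.178 ± 0.252 in the latter group to 5.69 ± 0.109 in DLD1 G579S with OTS964. The next MYNN group, wild-type MDA-MB-231 with OTS964 (0.193 ± 0.273), also held a library at 0, so the lowest place is not resolved. Of the 15 pairs of neighbours in each order, libraries overlapped in 6 for ARGLU1 and TAF1D, 9 for RBM39 and 10 for CREBZF and MYNN. The order of these neighbours is not resolved. With n = 2 in a group, an overlap does not show that groups were alike, nor its absence that they differed.

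In all 5 genes the largest G579S response, by size, was that of DLD1. For TAF1D it was 2.23 there and at most 0.96 in the other lines, and for RBM39 2.25 and at most 0.95. For CREBZF (2.09 in DLD1 and 1.78 in MDA-MB-231), MYNN (1.36 and 1.29 in Cal51) and ARGLU1 (-1.07 and -0.99 in MDA-MB-231) the next line was within 1 SE. DLD1 G579S was also the G579S line with the most genes past the threshold, 3371 (23.5%), against 94 in A375, 56 in Cal51 and 44 in MDA-MB-231 (0.657%, 0.391% and 0.307%). The part of the line in the members' responses was not tested.

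The G579S and wild-type cells were next compared under DMSO, a contrast that did not enter the choice of the genes. Of 20 tests, 5 genes in 4 lines, 3 passed an adjusted p of 0.05 (edgeR's quasi-likelihood test, adjusted over all 14318 genes). In Cal51, TAF1D was higher in G579S cells by 0.71 ± 0.193 (log2, SE, adjusted p = 0.0153) and ARGLU1 was lower, at -0.55 ± 0.139 (adjusted p = 0.00891). Of all genes, 17.0% passed in that contrast. In both cases the 2 libraries of 1 genotype lay above those of the other. The Cal51 G579S DMSO libraries were less alike (r = 0.951 of log2 CPM) than the Cal51 wild-type DMSO ones (0.979). The fit shared 1 estimate of the spread over all groups, so it can understate the error here. Neither call held in every fit that left out 1 library. TAF1D was at 0.60 without Cal51 wild-type DMSO replicate 1 and at 0.57 without Cal51 G579S DMSO replicate 2, and ARGLU1 at -0.48 without Cal51 wild-type DMSO replicate 2 and at -0.39 without Cal51 G579S DMSO replicate 1. CREBZF was higher in DLD1 G579S than in the libraries labelled DLD1 wild-type, by 1.37 ± 0.317 (adjusted p = 0.00133), where 49.2% of all genes passed. This contrast rests on the label that the markers went against, and the libraries labelled DLD1 wild-type (8.80 and 5.43 CPM) lay near wild-type A375 (6.13 and 6.12 CPM).

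None of the 5 genes passed in A375 or MDA-MB-231, where 9.77% and 7.30% of all genes did. TAF1D in DLD1 came closest, at -0.46 ± 0.188 with an adjusted p of 0.0502, and passed with DESeq2, with curated identifiers only and without the library labelled DLD1 wild-type DMSO replicate 1 (-0.60). ARGLU1 in MDA-MB-231 stood at -0.43 ± 0.14 (adjusted p = 0.0676) and passed with DESeq2. RBM39 passed in no line, with differences from -0.43 in DLD1 to -0.07 in MDA-MB-231, and MYNN in none, from -1.18 to 0.40 with an SE of about 1. A p that misses the threshold does not show that the genotypes were alike.

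The kinases and cyclins around CDK11 form the first of the lists of neighbouring genes, which leave out the 5 members. Its 9 genes are CDK11A, CDK11B, the cyclins CCNL1 and CCNL2, the CDK11 partner SAP30BP and the kinases CLK1 to CLK4, which phosphorylate SR splicing factors. In wild-type cells 1 rose and 5 fell with OTS964, by edgeR's quasi-likelihood test. Of all 14318 genes tested, 3879 rose and 4547 fell there (58.8% past the threshold), and 2.43% passed in G579S cells. CCNL1 rose by 2.48 ± 0.419 (log2, SE, adjusted p = 0.00013), from 8.61 ± 4.02 to 54.7 ± 35.4 CPM (SD, n = 8). CLK4 fell by 3.39 ± 1.04 (adjusted p = 0.011), CLK1 by 2.23 ± 0.161 (adjusted p = 3.2e-08), CLK3 by 1.48 ± 0.233 (adjusted p = 6.8e-05), SAP30BP by 1.26 ± 0.0812 (adjusted p = 1.3e-08) and CDK11A by 0.36 ± 0.0895 (adjusted p = 0.0029). CDK11B was at -0.17, CCNL2 at -0.08 and CLK2 at -0.57, none past the threshold, although with library totals CDK11B (-0.72) and CCNL2 (-0.63) passed as lower and with counts scaled from TPM CCNL2 passed as higher (0.69).

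In G579S cells only CCNL1 of these 9 passed, with a rise of 1.31 ± 0.269 (adjusted p = 0.025). It was lost in 2 of 16 fits that left out 1 library, and was 0.87 and short of the threshold without the libraries labelled DLD1 G579S. CLK1 (0.76, adjusted p = 0.055) and CLK4 (0.81, adjusted p = 0.096) lay above 0 there and below 0 in wild-type cells, the pattern of RBM39 and MYNN. The differences of their responses were 2.98 ± 0.252 and 3.99 ± 0.943 (adjusted p = 5.1e-10 and 0.00086), the latter resting on the low CLK4 levels in wild-type cells with OTS964. CCNL1 had the pattern of CREBZF, higher in both genotypes, with a difference of -1.17 that did not pass (adjusted p = 0.055). The median log2 change of the list was -0.58 in wild-type and 0.37 in G579S cells, against -0.11 and -0.01 over all genes. The wild-type median was -1.27 without MDA-MB-231 wild-type OTS964 replicate 1 and -0.35 without Cal51 wild-type OTS964 replicate 2, and the G579S median was 0.18 without Cal51 G579S OTS964 replicate 1.

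Around RBM39, 12 genes were examined, mostly relatives of U2AF and factors of branch-site recognition. The list is called U2AF relatives for short, although it also holds DCAF15, which is neither. In wild-type cells 5 rose and 6 fell, with a median of -1.01. DCAF15 (-1.29) was among those that fell. The shares of all genes past the threshold were 58.8% there and 2.43% in G579S cells. CHERP, a U2-associated protein, fell by 1.76 ± 0.0793 (adjusted p = 1.5e-09) and ZRSR2, the U2AF1 relative of the minor spliceosome, by 1.68 ± 0.216 (adjusted p = 9.4e-06). In G579S cells 3 rose, which were U2AF2 (0.32), SF1 (0.49), the branch-point binding protein, and CHERP (0.42, adjusted p = 0.038), and none fell. The CHERP call was lost in 10 of 16 fits that left out 1 library, and without the libraries labelled DLD1 G579S only SF1 of the 3 passed. CHERP thus had the opposite directions seen in RBM39, and the difference of its responses was 2.18 ± 0.126 (adjusted p = 1.5e-12).

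The 14 genes of RNA polymerase I initiation around TAF1D moved mainly down in wild-type cells, where 10 fell, none rose and the median was -0.70. Of all 14318 genes tested, 3879 rose and 4547 fell in wild-type cells (58.8% past the threshold), and 2.43% passed in G579S cells. POLR1C, a subunit shared by RNA polymerases I and III, fell by 3.34 ± 0.21 (adjusted p = 9.9e-09), from 41.6 ± 4.03 to 4.28 ± 1.9 CPM (SD, n = 8). TBP, the TATA-binding protein that is also part of SL1, fell by 1.85 ± 0.257 (adjusted p = 2.1e-05). TAF1D, at 0.12, did not pass in wild-type cells, nor did the remaining 4 of the list. In G579S cells 1 of the 14 passed, the initiation factor RRN3, which rose by 0.46 (adjusted p = 0.031) and did not pass in 9 of 16 fits without 1 library.

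Among 14 tested bZIP factors and host cell factors around CREBZF, 3 rose and 7 fell in wild-type cells, with a median of -0.26. None passed in G579S cells. The shares over all genes were 58.8% and 2.43%. HCFC2, a host cell factor, fell by 2.74 ± 0.302 (adjusted p = 2e-06) and CREB1, the cAMP-responsive factor, by 2.20 ± 0.448 (adjusted p = 0.00063). Both moved against CREBZF. Of 41 genes of BTB zinc finger proteins around MYNN, 11 rose and 12 fell in wild-type cells, near the share of 58.8% over all genes. None passed in G579S cells, and the wild-type median was -0.04. That median was -0.35 without the library labelled DLD1 wild-type OTS964 replicate 2 and 0.08 without MDA-MB-231 wild-type OTS964 replicate 2. ZBTB41 fell by 2.43 ± 0.225 (adjusted p = 3.4e-07), from 24.6 ± 3.9 to 4.64 ± 2.11 CPM (SD, n = 8), as MYNN was lower. ZBTB20, which also passed, was at most at 0.111 CPM with DMSO and 2.32 CPM with OTS964, too low for a useful fold change.

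The list around ARGLU1 held 22 splicing-related genes known for regulated introns or decay-linked exons. In wild-type cells 3 rose and 14 fell, with a median of -0.92. The shares of all genes past the threshold were 58.8% there and 2.43% in G579S cells. PNISR, an SR-related protein, fell by 3.11 ± 0.168 (adjusted p = 3.6e-09), from 35.6 ± 6.79 to 4.17 ± 1.44 CPM (SD, n = 8), and CLK4 is counted here as well. In G579S cells 1 rose, SRSF2 (0.63, adjusted p = 0.026), and 3 fell, SRSF5 (-1.07, adjusted p = 0.019), LUC7L3 (-0.76, adjusted p = 0.019) and OGT (-0.61, adjusted p = 0.023). PNISR was at -1.25 ± 0.316 there (adjusted p = 0.052). Without the libraries labelled DLD1 G579S none of these 4 calls was kept, at 0.39, -0.87, -0.50 and -0.41. ARGLU1 (-0.84) lay within this range of G579S values, on the lower side with SRSF5, LUC7L3 and OGT.

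**Figure D4:**
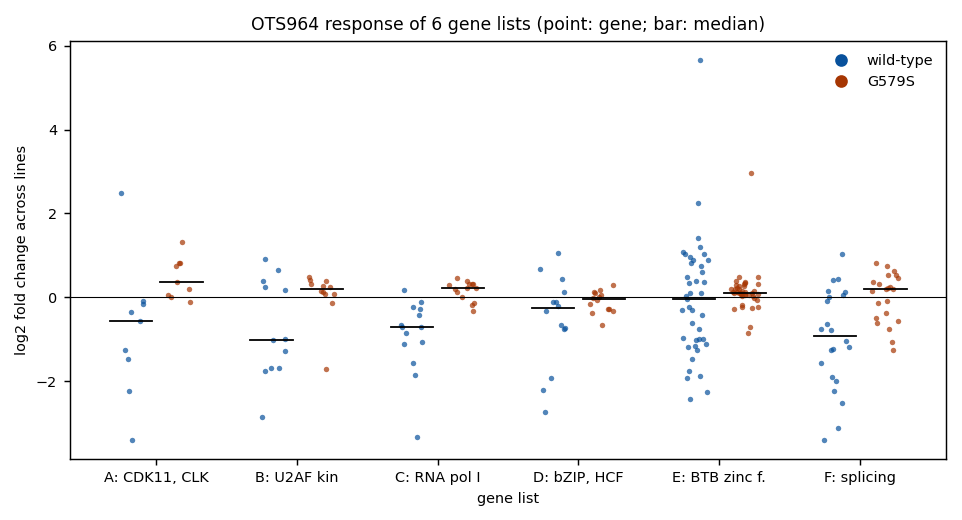
OTS964 response across lines of the 6 lists of neighbouring genes, as log2 fold change on the y axis, in wild-type (blue) and G579S (red-brown) cells. Each point is 1 gene and each bar the median of the list: A, CDK11 partners and CLK kinases; B, U2AF relatives; C, RNA polymerase I initiation; D, bZIP and host cell factors; E, BTB zinc finger genes; F, splicing-related genes. Medians lie from -1.01 to -0.04 in wild-type cells and from -0.03 to 0.37 in G579S cells.

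The annotation of the 5 genes bears on what the tables can measure. In GENCODE, transcripts with a retained intron number 16 of 45 for RBM39, 9 of 22 for TAF1D, 2 of 9 for CREBZF, 1 of 4 for ARGLU1 and 0 of 5 for MYNN. Transcripts of the nonsense-mediated decay class number 15, 7, 4, 0 and 2. Among 13870 tested genes found there by symbol, 55.5% had a retained-intron transcript, 40.7% a decay one, and the median gene had 1 of the former. Only 0.303% had as many as RBM39. TAF1D hosts 8 small nucleolar RNA genes on its strand, and 1.55% of genes host any. The small RNAs themselves, and reads in introns, were not analysed here, so the values above are those of the matched transcripts listed in the tables.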

How the data were processed

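Of each of the 32 libraries the authors deposited 1 transcript table, which holds 2 length columns, TPM and estimated counts per the file headers. The estimated counts are the authors' own, not whole and not normalized, and the deposited TPM values are per transcript length and library total. No source used here names the quantification tool. The submitters' processing notes name mouse builds although the identifiers are human RefSeq, so no coordinates are given. Identifiers were matched to genes through tables of RefSeq and GENCODE, 48.73% of them (99.14% of curated, 20.33% of predicted), holding 85.6% to 89.4% of the reads. Reads on other transcripts were left out of library sizes and tests. Counts were summed per gene and rounded.

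Gene tests used edgeR 4.0.16 under R 4.3.3 (quasi-likelihood F test, TMM scaling, the filter on low counts by 16 groups, Benjamini-Hochberg over 14318 genes). Contrasts across lines had the labelled line as a block, and those within a line were taken from a single fit to 16 groups with 16 residual degrees of freedom, in which all groups share 1 estimate of the spread. The script was tested on simulated data. The 5 genes, the lists and the tests were chosen with earlier results of these data known, so OTS964 responses of the 5 are described without p-values. Genes named from a list are the 2 with the largest wild-type change past the threshold, all 9 of the CDK11 list, and those that passed in G579S cells, which were named after their values were seen. Alternatives were library totals, DESeq2 1.42.0, no filter, counts scaled from TPM, curated identifiers only, a replicate block, each library left out, and the libraries labelled DLD1 wild-type left out (both DLD1 genotypes for the difference); leaving out those labelled DLD1 G579S was chosen after seeing the data.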

Additional observations from a re-analysis of the deposited data

Results flagged for a closer look

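RBM39 moved in opposite directions in the 2 genotypes in every library: all 8 wild-type libraries with OTS964 lay below the mean of their DMSO libraries and all 8 G579S libraries above it. The difference of the log2 fold changes, G579S minus wild-type, was 1.98. MYNN did the same in all 16 OTS964 libraries, with a difference of 3.27. Neither difference was tested, since the genes were chosen with these values known. In the 20 sets of 8 libraries of 1 gene, genotype and treatment, no library was flagged as apart from the other 7. Each set pools the lines, with 2 libraries of each, so a line that differs in both can go unflagged. RBM39 in DLD1 G579S with OTS964 (795 and 768 CPM) was not flagged. Nor was the unlike RBM39 pair labelled DLD1 wild-type with OTS964 (46.8 and 182 CPM). That pair held the lowest and the highest value of its set of 8, so the rule of a gap to the other libraries missed it. The check therefore cannot show whether any library was aberrant.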

How the results depend on the processing

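No called value of the 5 genes changed sign under any alternative tried, and TAF1D in wild-type cells, not past the threshold with TMM, passed at -0.43 with library totals. Among the named neighbours, SF1 turned to -0.38 in wild-type cells with library totals and CCNL2 to 0.69 with counts scaled from TPM. The causes were not tested.

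With library totals 808 genes passed in G579S cells (348 with TMM), 12.1% of them higher (52% with TMM), and the higher share of wild-type calls was 21.9% (46%). List medians in wild-type cells were then -1.12 for the CDK11 list, -1.55 for U2AF relatives, -1.25 for RNA polymerase I, -0.81 for bZIP and host cell factors, -0.59 for BTB zinc fingers and -1.46 for splicing-related genes. The bZIP median in G579S cells was -0.15. The medians of the difference were 1.57, 1.51, 1.4, 0.65 for the first 4 lists and 1.41 for the last. DESeq2 called 1777 genes in G579S cells, and under DMSO 2127 in A375 (1399 with edgeR) and 1891 in MDA-MB-231 (1045). The bZIP wild-type median was -0.16 with DESeq2, -0.22 with no filter, -0.31 with counts scaled from TPM and -0.35 with curated identifiers only. Without the libraries labelled DLD1 G579S 28 genes passed in G579S cells, and CREBZF (1.28) and MYNN (0.83) did not.

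Replicate numbers did not pair the libraries: the correlation of same-numbered libraries' deviations lay between -0.03 and 0.07 in 8 pairs. With the replicate block 214 genes passed in G579S cells in place of 348, and no call of the 5 genes changed.

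With 1 library left out, the genes past the threshold numbered 8070 to 8762 in wild-type cells, 100 to 1693 in G579S cells and 6929 to 7406 for the difference. The G579S number moved by over 1.5 times without A375 G579S DMSO replicate 1 (118) or 2 (169) or OTS964 replicate 1 (198), Cal51 G579S DMSO replicate 2 (1693) or OTS964 replicate 2 (189), and DLD1 G579S DMSO replicate 1 (100) or 2 (115) or OTS964 replicate 1 (125) or 2 (101). Under DMSO they numbered 756 to 787 in A375, 1190 to 3437 in Cal51, 5728 to 5888 in DLD1 and 412 to 516 in MDA-MB-231, where the lone library is assumed to vary like the others. Medians of the CDK11 list ran from -1.27 to -0.35 in wild-type cells, 0.18 to 0.51 in G579S cells and 0.42 to 1.18 for the difference. Those of U2AF relatives ran from -1.1 to -0.94, 0.18 to 0.23 and 0.68 to 1.13. Those of RNA polymerase I ran from -0.76 to -0.65, 0.18 to 0.28 and 0.92 to 1. Those of bZIP factors ran from -0.30 to -0.22, -0.0945 to 0.0132 and 0.11 to 0.31. Those of BTB zinc fingers ran from -0.35 to 0.08, 0.09 to 0.15 and 0.13 to 0.47. Those of splicing-related genes ran from -1.02 to -0.86, 0.15 to 0.24 and 0.93 to 1.02. Depth limits MYNN most, with 0 to 395.2 estimated reads in a library. Matching leaves out numbered identifiers and most predicted ones.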

Other observations

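Promoters, taken as 250 bases before to 50 after the start in RefSeq, were given for 4 of the 5 genes. The letters CCGGAAG, bound by ETS factors, were found on either strand in those of CREBZF and TAF1D, and in 10.3% of 35116 promoters. The letters TGACGTCA (1.85%), CACGTG (7.26%), TATAAA (11.5%) and CCAAT (34.6%) were in none of those of CREBZF, TAF1D, MYNN or ARGLU1.

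For each of the 5 genes the 3 genes with the most similar levels were sought, by Pearson's r of log2 CPM over the 32 libraries after subtracting the mean of each labelled line. These points share lines, library scaling and treatment, so r is a description. CREBZF was closest to FAHD1 (r = 0.956), the growth regulator MYC (0.941) and the matrix protein CCN1 (0.939). TAF1D was closest to KPNA1 (0.791), RBM18 (0.727) and DDX47 (0.723), RBM39 to AKAP8 (0.942), LSM12 (0.93) and SLC71A1 (0.923), MYNN to ZNF254 (0.938), LIN54 (0.937) and CBFA2T2 (0.929), and ARGLU1 to MAT2A (0.917), PNISR (0.913) and IBA57 (0.909). Without the DLD1 libraries only 1 of these 15 was again among the 3, ZNF254 beside MYNN. Among the 5 genes themselves r was 0.803 for RBM39 with MYNN, 0.656 for TAF1D with RBM39 and -0.851 for CREBZF with ARGLU1.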
